A study of Mus musculus with 6 samples.

Results

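The genes described here code, with few exceptions, for subunits of oxidative phosphorylation that are made from the nuclear genome. Members were taken by symbol: Nduf followed by a, b, c, s or v and a digit (complex I), Sdha to Sdhd (complex II), Uqcr (complex III), Cox4 to Cox8 (complex IV) and Atp5 (complex V). Of 23282 symbols in the deposited table, 85 matched, each represented by its transcript with the highest mean. They comprised 37 genes of complex I, 4 of complex II, 8 of complex III, 19 of complex IV and 17 of complex V. A mean of at least 10 reads over the libraries was reached by 71 members (36, 4, 7, 11 and 13 by complex), and 14 stayed below it, 5 of them with 0 reads in every library. Cox4nb, Atp5s and Atp5sl match by symbol but are not known as subunits of the enzymes. Subunits with other symbols, such as Cyc1 of complex III and Ndufab1 of complex I, are left out. The counts by complex therefore do not cover whole complexes. Ndufa4 is grouped with complex I by its symbol, although its product is known as a subunit of complex IV.

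The cells were macrophages that thioglycollate had drawn into the peritoneum of C57BL/6 females, and 1 library of their poly(A) RNA was sequenced per group. The groups were siSmyd5 with KLA, siSmyd5 with vehicle, siPhf2 with KLA, siPhf2 with vehicle, siCtl (control siRNA) with KLA and siCtl with vehicle. Cells had siRNA for 48 hours in every library, and KLA, an agent given in the labels only by this abbreviation, at 100 ng per ml for 4 hours. Smyd5 and Phf2 are named in the labels as the siRNA targets, and nothing in the labels says that libraries came from separate animals or cultures.

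Oxidative phosphorylation couples electron transport to the making of ATP in the inner mitochondrial membrane. Complexes I and II pass electrons from NADH and succinate to ubiquinone, complex III passes them to cytochrome c and complex IV to oxygen, and complex V, the ATP synthase, uses the proton gradient that results. Macrophages exposed to ligands of Toll-like receptors are known to shift from respiration towards glycolysis.

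The libraries held 420141 to 1429520 reads. Depth was lowest under siPhf2, with 71.6% (KLA) and 66.7% (vehicle) of reads on the ribosomal RNA precursor Rn45s, against at most 1.2% in the others. The siRNA targets did not follow their labels throughout. In CPM without Rn45s (counts scaled to a common library size), Phf2 stood at 67.2 (KLA) and 151 (vehicle) in the siPhf2-labelled libraries, against 84.6 and 83.7 in the siCtl-labelled libraries. Smyd5 stood at 21.9 (KLA) and 9.88 (vehicle) in the siSmyd5-labelled libraries, against 20.4 and 32.6 in the siCtl-labelled libraries, so that it was lower under vehicle alone. Phf2 was lowest where siSmyd5 was the label, at 37.3 with KLA and 57.1 with vehicle. Smyd5 was at 0 with KLA and 15.6 with vehicle where siPhf2 was the label. Few reads lie behind these levels. Under siPhf2 (KLA, then vehicle) Phf2 had 8 and 29 reads, and Smyd5 had 0 and 3. Under siSmyd5 Smyd5 had 20 and 9. The totals printed on the siCtl and siPhf2 columns also gave whole reads only when exchanged, so every direction below holds for the libraries as labelled. Macrophage markers, 8 of 9 listed genes in the table, summed to 7178 and 7626 CPM (siSmyd5, KLA and vehicle), 6262 and 6335 (siPhf2) and 6448 and 6508 (siCtl). All 7 fibroblast or mesothelial markers were in the table and summed to 1102 and 1065 (siSmyd5), 386 and 540 (siPhf2) and 1354 and 1497 (siCtl) on the same scale, led by the collagens Col1a1, Col1a2 and Col3a1. Their part in the results below was not tested. In bulk RNA, fewer cells of a type and less RNA per cell cannot be told apart.

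To show the promoter sequence in front of members that did and did not pass the tests below, 250 bases up to the annotated start are given for 3 of them, from the RefSeq promoter table on GRCm38.p6. Capitals mark matches to the NRF1 motif (GCGCA, any base, GCGC) in Ndufa11 and Sdhd, and to CCGGAAGT, bound by the ETS factor GABP and present here on the opposite strand, in Uqcrh. Ndufa11 (chr17:56717512-56717761, plus strand) and Uqcrh (chr4:116075071-116075320, minus strand) rose in the siSmyd5-labelled libraries, whereas Sdhd (chr9:50603850-50604099, minus strand) passed no test.
Ndufa11: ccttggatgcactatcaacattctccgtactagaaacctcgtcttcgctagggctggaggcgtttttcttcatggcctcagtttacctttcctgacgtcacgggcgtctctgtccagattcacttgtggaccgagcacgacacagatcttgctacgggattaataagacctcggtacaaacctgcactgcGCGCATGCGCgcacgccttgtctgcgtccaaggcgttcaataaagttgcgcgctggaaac
Uqcrh: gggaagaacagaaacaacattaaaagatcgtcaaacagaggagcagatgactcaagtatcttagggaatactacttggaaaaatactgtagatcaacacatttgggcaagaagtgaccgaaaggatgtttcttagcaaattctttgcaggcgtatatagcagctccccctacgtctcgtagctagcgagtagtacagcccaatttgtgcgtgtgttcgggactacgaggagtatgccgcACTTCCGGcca
Sdhd: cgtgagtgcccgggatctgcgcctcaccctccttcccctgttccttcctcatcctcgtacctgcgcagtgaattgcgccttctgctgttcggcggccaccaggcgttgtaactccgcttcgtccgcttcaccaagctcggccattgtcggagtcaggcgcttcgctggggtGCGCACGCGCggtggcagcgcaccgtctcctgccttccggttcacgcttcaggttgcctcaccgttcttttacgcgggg

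In the table's windows, from 250 bases before to 50 after the start and on both strands, 69 members were found by gene ID. The NRF1 motif was present in 17 of the 69 (24.6%), against 5.19% of all 27025 genes in the table and 13.0% of the 6378 other tested genes found there. It was present in 5 of the 14 members found that rose in the siSmyd5-labelled libraries and in 11 of the 45 other tested members. CCGGAAGT was present in 5 members (7.25%), against 4.31% of all genes and 10.6% of the other tested genes. AAGATGGC, bound by YY1, was present in 11 members (15.9%), against 3.19% and 5.91%, and 7 of the 11 belonged to complex I and 4 to complex V. These matches describe letters in a window and not binding.

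Members took 0.787% of reads without Rn45s in the siSmyd5 KLA library and 0.952% in the siSmyd5 vehicle library. The shares were 0.299% and 0.375% in the siPhf2-labelled libraries (KLA and vehicle), and 0.581% and 0.718% in the siCtl-labelled libraries. The Wilson 95% intervals of all 6 shares were apart, the closest being 0.269 to 0.331% (siPhf2 KLA) and 0.349 to 0.404% (siPhf2 vehicle). The share was thus lower with KLA than with vehicle under each siRNA, highest in the siSmyd5-labelled libraries and lowest in the siPhf2-labelled ones. These are shares of unscaled reads, so they also move with the reads that other genes take. With edgeR's trimmed-mean scaling, reads summed over the 71 tested members were 0.890-fold (siSmyd5), 0.880-fold (siPhf2) and 0.917-fold (siCtl) with KLA against vehicle. On that scale the siPhf2 interval, 0.773 to 1.001, held 1. Intervals here and below cover counting error only.

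**Figure D1:**
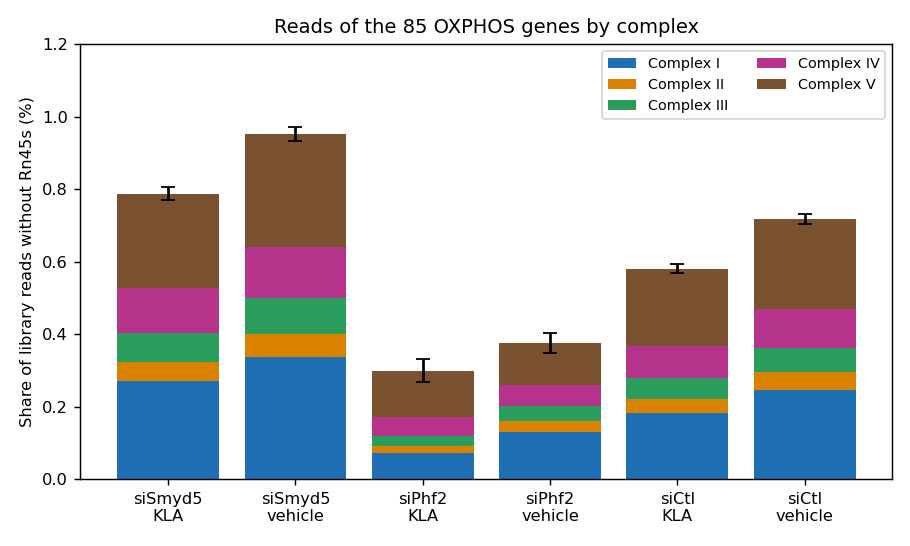
Share of library reads without Rn45s (y axis, %) taken by the 85 genes in each library (x axis), stacked by complex, with Wilson 95% intervals of the total. KLA stands left of vehicle under each siRNA and is lower in all 3 pairs, 0.787% against 0.952% for siSmyd5.

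Levels were set per kilobase of transcript as CPM on TMM-scaled library sizes (TMM being edgeR's trimmed-mean scaling). The highest mean levels over the 6 libraries were 317 for Cox4i1, the isoform of subunit 4 found in most tissues, and 270 for Atp5b, the catalytic beta subunit of ATP synthase. Atp5g3, which codes for the membrane ring subunit c, followed at 178, and Cox6b1, an accessory subunit of complex IV, at 146. In complex I the accessory subunits Ndufa3 (140) and Ndufa1 (121) led, in complex III Uqcrq (125), a small subunit, and the core protein Uqcrc1 (66.9), and in complex II Sdhb (62.5) and Sdha (49.4). Cox4i1 lay at 371 and 343 in the siSmyd5-labelled libraries (KLA and vehicle), 364 and 332 in the siPhf2-labelled libraries and 246 and 244 in the siCtl-labelled libraries. Atp5b lay at 318 and 338, 243 and 176, and 278 and 270 in the same order, so the pair exchanged places between the siCtl-labelled and the other libraries.

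Where a subunit has isoforms, reads fell mainly on 1 of them. Cox4i1 had 34 to 401 reads per library and Cox4i2, known from lung, 0 in all 6 libraries, which allows up to 3 reads in each. Cox6a1 had 1 to 116 reads and its heart and muscle isoform Cox6a2 at most 3. Cox8a had 3 to 180 reads, with Cox8b and Cox8c at 0 throughout. Cox6b1 had 7 to 177 reads, against at most 2 for Cox6b2, the testis isoform. Ndufa4 had 2 to 83 reads and Ndufa4l2, known for its induction in hypoxia, at most 2. Cox7a2 had 2 to 108 reads, Cox7a1, of heart and muscle, at most 4, and Cox7a2l, which takes part in supercomplex assembly, 16 to 25 in the siSmyd5- and siCtl-labelled libraries and 0 in both siPhf2-labelled libraries. Cox7b2 was also at 0 throughout.

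A few members with low counts code for subunits in general use. Cox7c had at most 2 reads in any library and Atp5l at most 1. Atp5g2 had at most 1 and Atp5g1 had 0, but both code for subunit c, as does Atp5g3, whose mean level was 178. These members have near-identical copies: 100% of the coding 32-base stretches of Atp5g1, Atp5g2 and Atp5l and 83.6% of those of Cox7c are also found, on either strand, in GENCODE M21 transcripts of other genes, mostly pseudogenes. Uqcr11, with 9 and 8 reads in the siSmyd5-labelled libraries, 0 and 3 in the siPhf2-labelled and 17 and 15 in the siCtl-labelled ones (KLA and vehicle), shares 55.5%, and Atp5s, with at most 8 reads, was also under the minimum. Their levels are uncertain, since how the authors treated reads with several matches is not given in the sources used here. Among the 71 tested members the median shared was 7.44%, with 12 members at 50% or more, whose counts are uncertain as well. Of the members named below, these include Ndufb4 (100%), Uqcrb (88.4%), Ndufs5 (80.5%), Cox6c (66.5%), Ndufs3 (64.4%) and Atp5f1 (58.7%).

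In the siSmyd5-labelled libraries members of complexes I, III, IV and V rose relative to the siCtl-labelled libraries. With both agents averaged, 18 of 71 members rose and 0 fell (edgeR's quasi-likelihood test, Benjamini-Hochberg adjusted p under 0.05), against 2.71% of the 7995 tested genes that rose and 3.6% that fell. At an unadjusted p under 0.05 the same test gave 39 members (54.9%), against 23.6% of all tested genes. The median log2 change was 0.57, against 0.00 over all tested genes. Above 0 lay 69 of 71 members, against 4014 of all 7995 tested genes. Summed over the 71 members, TMM-scaled reads were 1.40-fold (95% interval 1.35 to 1.44) the siCtl-labelled level with KLA and 1.44-fold (1.40 to 1.48) with vehicle.

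Ndufb4 (NM_026610, mm9 chr16:37647688-37654454), an accessory subunit of the membrane arm of complex I, had the largest change. Its level per kilobase was 66.1 and 73.2 in the siSmyd5-labelled libraries (KLA and vehicle), 0 and near 18 (2 reads) in the siPhf2-labelled libraries and 19.7 and 33.7 in the siCtl-labelled libraries. Both siSmyd5-labelled values were above both siCtl-labelled ones, a log2 change of 1.38 ± 0.31 (SE, adjusted p = 0.0153 by edgeR's quasi-likelihood test), and its counts are uncertain because of the copies described above. Ndufb5 (1.02 ± 0.22), Ndufc2 (1.02 ± 0.26) and Ndufa6 (0.99 ± 0.21), all accessory subunits, followed in complex I. Ndufb5 lay at 80.1 and 85.8 in the siSmyd5-labelled libraries (KLA and vehicle), 0 and 20.5 in the siPhf2-labelled and 40.2 and 41.3 in the siCtl-labelled libraries. Ndufc2 lay at 70.2 and 84.8, 0 and 24.0, and 44.5 and 32.1 in the same order. For Ndufb5 and Ndufc2 too the siSmyd5- and siCtl-labelled values did not overlap. Like Ndufb4, they were named because they passed the fit to these libraries, so this is no separate support. How many of all tested genes do not overlap was not counted. Ndufb10 and Ndufa4 (0.91 each), Ndufa11 (0.88), Ndufa3 (0.83) and Ndufb9 (0.72) completed the 9 of the 29 members grouped as accessory that rose, Ndufa4 being grouped by symbol alone. None of the 7 core subunits, which carry the flavin and iron-sulfur clusters or bind ubiquinone, passed the test, although 3 had an unadjusted p under 0.05 and their median was 0.65, against 0.61 for the accessory members.

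Complex II, whose 4 genes have longer transcripts, passed in no member, with 2 at an unadjusted p under 0.05. Sdhc (0.64) and Sdhd (0.21), the membrane anchors, and Sdhb (0.57) and Sdha (0.40), the iron-sulfur and flavoprotein subunits, all lay above 0. Sdhb had levels of 86.7 and 98.0 in the siSmyd5-labelled libraries (KLA and vehicle), 20.3 and 45.8 in the siPhf2-labelled and 54.6 and 69.8 in the siCtl-labelled libraries. Sdhd had 34.4 and 34.0, 16.9 and 15.9, and 29.4 and 29.8 in the same order. For both genes the siSmyd5-labelled values lay above the siCtl-labelled ones, but for Sdhd the counting interval of the ratio held 1 under each agent (0.828 to 1.64 with KLA and 0.820 to 1.58 with vehicle).

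In complex III 3 of 7 members rose, all small subunits: Uqcrh, the hinge protein, Uqcrb, which borders the ubiquinone site, and Uqcrq. Uqcrh (NM_025641, mm9 chr4:115739570-115747675) lay at 86.5 and 136 in the siSmyd5-labelled libraries (KLA and vehicle), 13.3 and 30.0 in the siPhf2-labelled libraries and 52.4 and 37.1 in the siCtl-labelled libraries. Its log2 change was 1.31 ± 0.26 (adjusted p = 0.00917 by edgeR's quasi-likelihood test), the smallest adjusted p among the members. Uqcrb changed by 1.16 ± 0.32 and Uqcrq by 0.90 ± 0.22. The core proteins Uqcrc1 (0.40) and Uqcrc2 (0.39), the Rieske iron-sulfur protein Uqcrfs1 (0.58) and Uqcr10 (0.55) did not pass.

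In complex IV 2 of 11 rose, Cox6b1 (0.90 ± 0.19), which faces the intermembrane space, and Cox6c (0.88 ± 0.26). Cox6b1 lay at 187 and 233 in the siSmyd5-labelled libraries (KLA and vehicle), 101 and 130 in the siPhf2-labelled and 107 and 117 in the siCtl-labelled libraries. Cox4i1 (0.54) and Cox8a (0.07) did not pass, and Cox4nb, which is no known subunit, lay at -0.16.

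In complex V 4 of 13 rose, and all belonged to the membrane part or the stalk: Atp5k (subunit e, 1.05 ± 0.31), Atp5g3 (subunit c, 0.96 ± 0.20), Atp5j (coupling factor 6, 0.90 ± 0.20) and Atp5f1 (subunit b, 0.86 ± 0.21). Atp5g3 (NM_175015, mm9 chr2:73746507-73749351) lay at 257 and 293 in the siSmyd5-labelled libraries (KLA and vehicle), 107 and 127 in the siPhf2-labelled and 135 and 147 in the siCtl-labelled libraries. None of the 5 F1 genes, which form the catalytic head, passed (1 at an unadjusted p under 0.05). Their median was 0.21, against 0.86 for the other 8. Atp5b (0.26), Atp5a1 (0.21), Atp5c1 (0.16) and Atp5d (0.08) lay close to 0, and Atp5e, the shortest of the 5, was at 0.77.

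**Figure D2:**
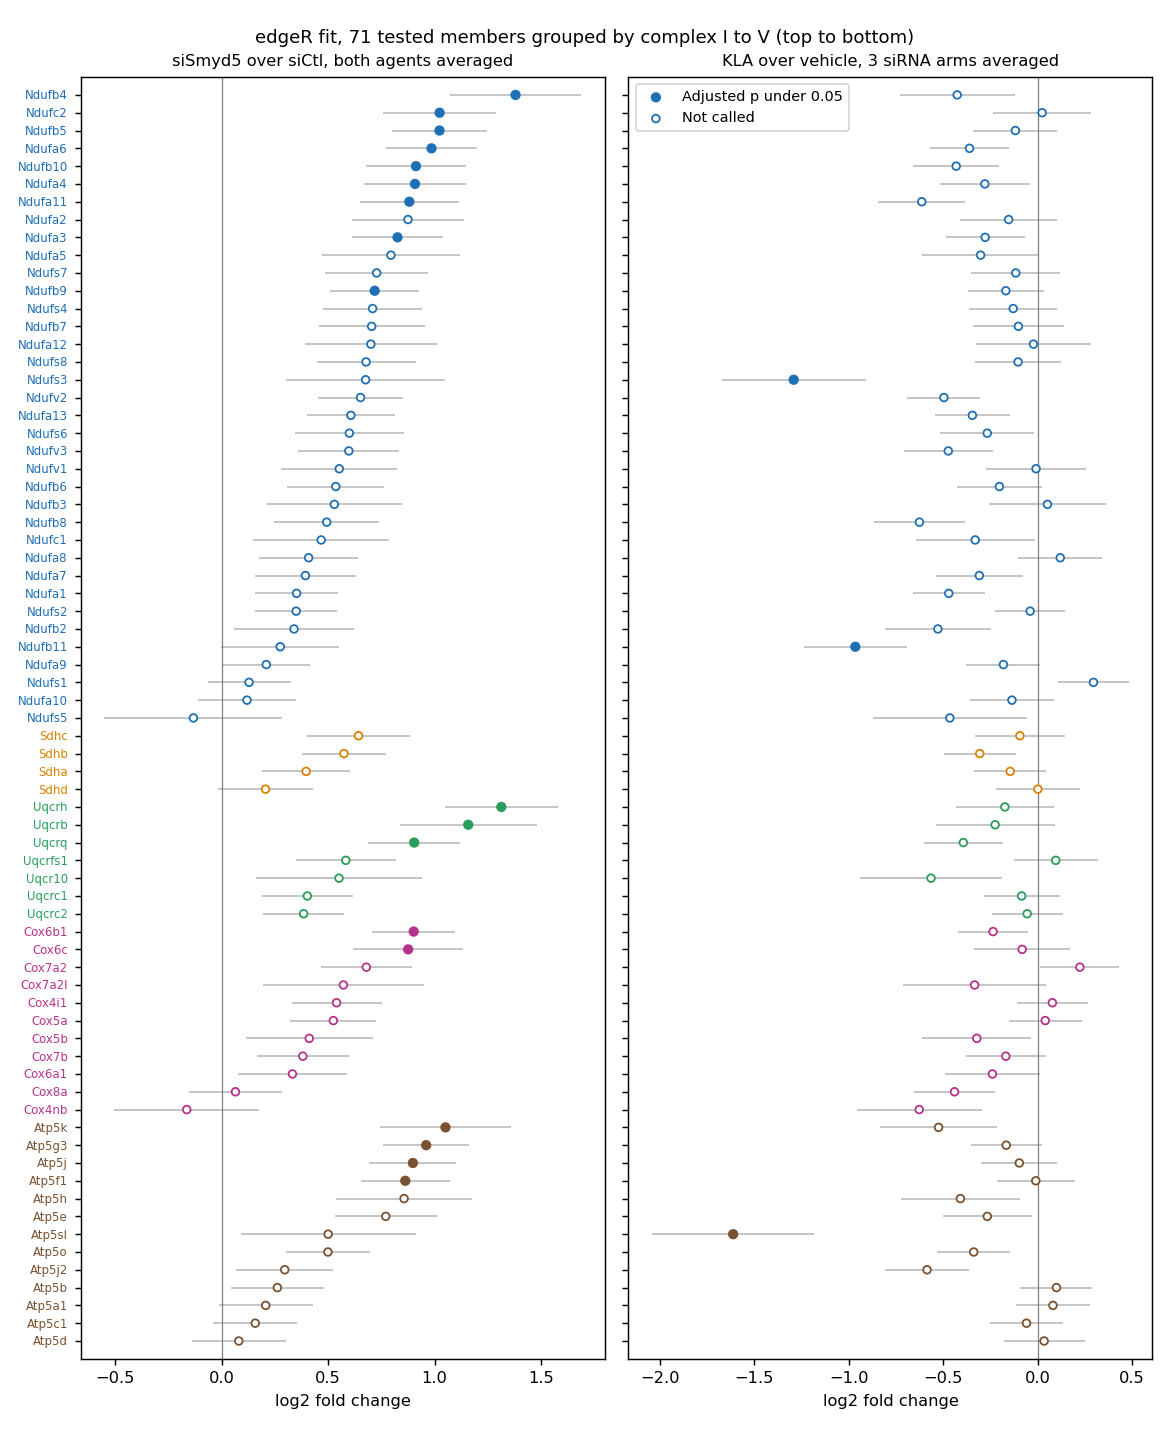
Log2 fold change with its standard error (x axis) of the 71 tested members (rows, grouped by complex I to V from top to bottom) for siSmyd5 over siCtl on the left and KLA over vehicle on the right, from edgeR's additive fit. Filled points passed an adjusted p of 0.05: 18 on the left, all above 0, and 3 on the right, all below 0.

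The 18 calls depended on the libraries and on the model. Leaving out the siSmyd5 KLA, siSmyd5 vehicle, siCtl KLA or siCtl vehicle library left 0 calls in each case (3, 7, 8 and 1 at an unadjusted p under 0.05, or 4.23%, 9.86%, 11.3% and 1.41% of members against 3.93%, 2.39%, 3.43% and 3.34% of all tested genes), where 0.025%, 0.0625%, 0.0125% and 0.0125% of all tested genes rose. Leaving out the siPhf2 KLA or the siPhf2 vehicle library gave 43 calls, with 14.5% of all tested genes rising in each case. Without both it was also 43, with 13.3% of all tested genes rising, and the median of the members was 0.54. A siPhf2-labelled library left in alone is fitted exactly by its own term. These fits thus rest on the same siSmyd5- and siCtl-labelled libraries and are not separate repeats. DESeq2, limma-voom and limma on log2 values called 0 members, with 14, 33 and 12 at an unadjusted p under 0.05 (19.7%, 46.5% and 16.9% of members, against 6.34%, 19.9% and 6.15% of all tested genes) and 0.0375%, 0.1% and 0% of all tested genes rising. Scaling by library totals left 3 members (0.738% of all tested genes rose). Over all genes 59 rose and 166 fell with library totals, and 217 and 288 with TMM.

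Transcript length moved with the siSmyd5 ratio over all genes. Among the tested genes outside the members, the shortest of 20 length bins (median 700 bases) had a median log2 ratio of 0.45 with KLA and 0.54 with vehicle, and the longest (median 9150.5 bases) -0.55 and -0.54. The tested members are short, with a median length of 687 bases against 2913 over all tested genes, and the 18 that rose had a median of 549.5 bases against 850 for the other 53. By length, 14 of 36 members under 700 bases rose, 2 of 20 from 700 to 1400 bases and 2 of 15 of at least 1400 bases. Of 451 other tested genes under 1000 bases, 60 rose, and the cytosolic ribosomal proteins, which are also short, had 15 of 40. With length offsets in the fit, 0 of 71 members were called by edgeR's quasi-likelihood test, against 0.588% of all tested genes that rose. In that fit 5 of the 40 cytosolic ribosomal proteins still rose, with a median of 0.23. Of the 451 other genes under 1000 bases, 1 rose and 2 fell. At an unadjusted p under 0.05 there were 10 members (14.1%), against 15.8% of all tested genes. The median of the members was 0.24, with 54 of 71 above 0. Over all tested genes the median was 0.01, with 4066 of 7995 above 0. With length offsets and both siPhf2-labelled libraries left out, a setting chosen after seeing the data, 7 members rose and 1 fell, against 9.21% and 7.18% of all tested genes. The part of length in the siSmyd5 result was not tested beyond these values.

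**Figure D3:**
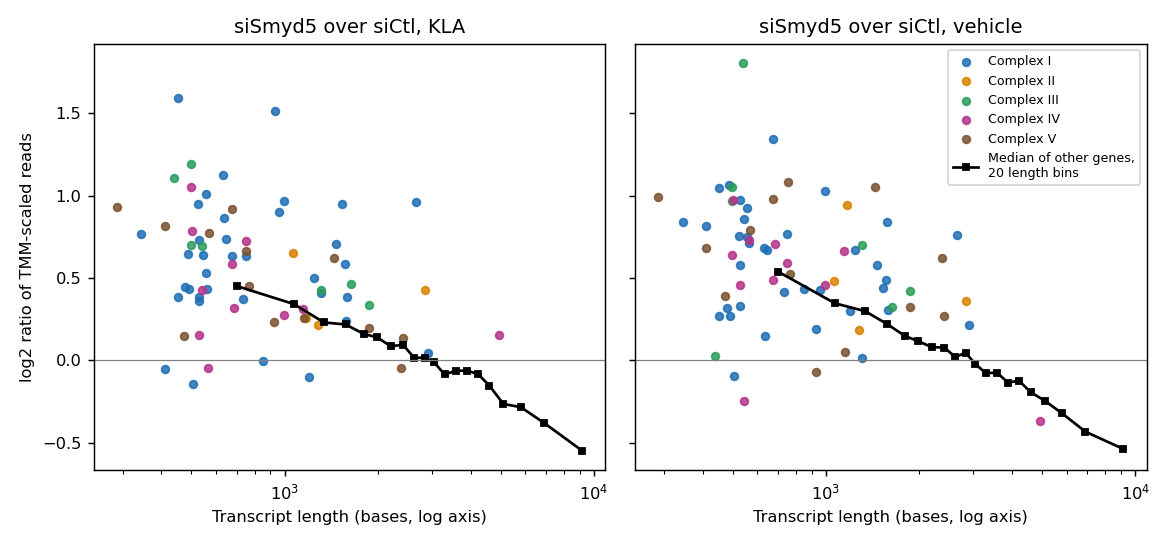
Log2 ratio of siSmyd5 over siCtl (y axis) against transcript length (x axis, log scale) for the 71 tested members, coloured by complex, with KLA on the left and vehicle on the right. The black line joins the medians of other tested genes in 20 length bins, which go down with length, and most members lie at its short end.

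In single libraries, the median log2 ratio of members was 0.50 with KLA and 0.59 with vehicle, against 0.0002 and -0.005 over all tested genes. Under both agents 62 members were above 0. After subtracting the median of the 400 genes nearest in length, the members' medians were 0.19 and 0.19. Then 48 and 52 of 71 were above 0, and 41 under both. The counts under both agents were not made over all tested genes. A ratio was called by size at a log2 ratio of at least 1 with an exact Poisson interval that left out equality. By this rule 7 members were higher with KLA and 8 with vehicle, and 0 were lower, against 1.73% and 2.4% of all tested genes that were higher and 3.63% and 4.99% that were lower. These contrasts compare 1 library with 1, with no replicate check. Ndufb4 was called under both agents, at a ratio of 3.36 (1.93 to 6.04) with KLA and 2.17 (1.39 to 3.42) with vehicle. Its length-corrected log2 ratios were 1.14 and 0.51.

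After the length correction the order within complexes changed. The largest mean corrected ratio over both agents was 0.84 for Ndufa11 in complex I, whose listed transcript is long at 2657 bases, 0.76 for Uqcrh in complex III, 0.60 for Atp5f1 in complex V, 0.39 for Cox6b1 in complex IV and 0.36 for Sdha in complex II. The smallest were -0.61 for Ndufs5, -0.40 for Cox8a, -0.30 for Atp5d, -0.09 for Sdhd and 0.07 for Uqcr10. By complex, the corrected medians with KLA and vehicle were 0.19 and 0.20 in complex I, 0.13 and 0.22 in II, 0.25 and 0.40 in III, -0.01 and 0.11 in IV and 0.06 and 0.19 in V. The core subunits of complex I stood at 0.37 and 0.17 and the F1 genes at 0.03 and 0.14. Members of at least 1400 bases, for which the correction is smallest, kept medians of 0.26 and 0.27, with 14 of 15 above 0 under each agent.

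**Figure D4:**
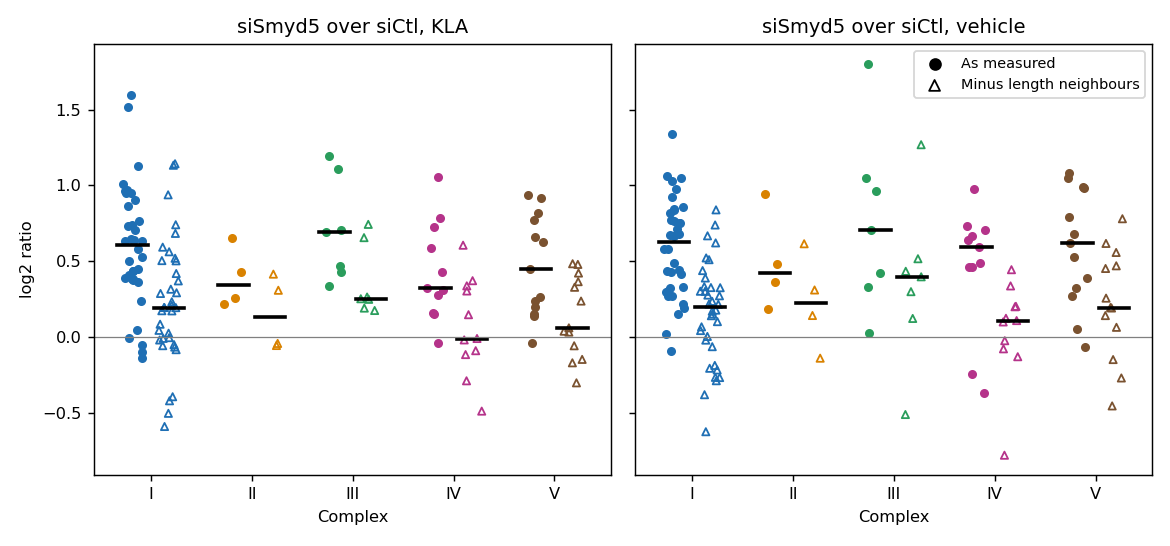
Log2 ratio of siSmyd5 over siCtl (y axis) by complex (x axis) with KLA on the left and vehicle on the right, as measured (filled circles) and after subtracting genes of like length (open triangles). Bars are medians, and in complex I they fall to 0.19 with KLA and 0.20 with vehicle after the correction.

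Other mitochondrial genes were set beside the members in the same fit. Of 68 mitochondrial ribosomal protein genes 2 rose, with a median of 0.39. Of 23 respiratory chain assembly factors 1 rose, the copper chaperone Cox17 (1.37 ± 0.31), with a median of 0.16. None of 17 genes of the mobile carriers and related chain genes (median 0.29) passed edgeR's test in either direction. Neither did any of 18 genes of the tricarboxylic acid cycle and pyruvate dehydrogenase (0.13) or of 12 regulators of mitochondrial biogenesis (0.03). At an unadjusted p under 0.05 these lists had 6, 0 and 3 genes. Over all tested genes 2.71% rose, 3.6% fell and 23.6% had an unadjusted p under 0.05. With length offsets the medians, in the order given here from the mitochondrial ribosomal proteins on, were 0.04, 0.06, 0.02, -0.02 and 0.01. The members' median in that fit was 0.24.

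With KLA 3 members fell, Atp5sl, Ndufs3 and Ndufb11. Averaged over the 3 siRNA arms, 3 of 71 fell and 0 rose, against 4.6% of all tested genes that fell and 11.2% that rose, and 8 members (11.3%) had an unadjusted p under 0.05, against 26.6% of all tested genes. The share that fell, 3 of 71, was thus near the background. The median was -0.20, against -0.03 over all tested genes. Above 0 lay 12 of 71 members, against 3781 of 7995 tested genes. The KLA-treated level summed over members was 0.890-fold (0.862 to 0.918) that of vehicle in the siSmyd5 arm, 0.880-fold (0.773 to 1.001) in the siPhf2 arm and 0.917-fold (0.890 to 0.945) in the siCtl arm.

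Atp5sl, known as an assembly factor of complex I and no subunit of ATP synthase, had 6 (siSmyd5), 1 (siPhf2) and 10 (siCtl) reads with KLA, against 28, 2 and 28 with vehicle. Each KLA library was below the vehicle library of its arm, a log2 change of -1.61 ± 0.43 (adjusted p = 0.0122 by edgeR's quasi-likelihood test). Ndufs3, a core subunit of complex I, had 20, 1 and 9 reads with KLA, against 33, 2 and 46 with vehicle, in the same order of arms. It fell by 1.29 ± 0.38 on the log2 scale (adjusted p = 0.0239, edgeR). Ndufs3 shares 64.4% of its coding 32-base stretches with other genes, so this count too is uncertain. Ndufb11, an accessory subunit on the X chromosome, had 28, 0 and 45 reads with KLA, against 68, 5 and 80 with vehicle, and fell by 0.97 ± 0.27 (adjusted p = 0.0189, edgeR). With length offsets 3 members were also called as lower (5.13% of all tested genes fell). Each of the siSmyd5 KLA, siSmyd5 vehicle, siCtl KLA and siCtl vehicle libraries, when left out, ended the calls (3, 3, 1 and 1 members at an unadjusted p under 0.05, against 12%, 12.2%, 12.9% and 13% of all tested genes), where 0.813%, 0.863%, 0.913% and 0.788% of all tested genes fell. Leaving out the siPhf2 KLA or the siPhf2 vehicle library gave 9 (9.04% of all tested genes in each case), and leaving out both also gave 9 (10.3%). As above, these fits without siPhf2-labelled libraries rest on the same remaining libraries and are not separate repeats. DESeq2 and limma on log2 values called 0 (4 and 3 at an unadjusted p under 0.05, against 14.9% and 19.5% of all tested genes) and limma-voom 1, with 1.43%, 0.588% and 2.93% of all tested genes falling. Scaling by library totals gave 6 members (6.44%) and by totals without Rn45s 8 (7.88%). Over all genes 637 rose and 515 fell with library totals, and 893 and 368 with TMM.

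By arm, the median log2 ratio of KLA over vehicle was -0.21 (siSmyd5), -0.47 (siPhf2) and -0.14 (siCtl), and -0.12, -0.28 and -0.09 after the length correction. Over all tested genes the medians without correction were 0.00, -0.16 and 0.02 in the same order. With members at 0 reads set at their bound, the members' siPhf2 median was -0.16. In all 3 arms 33 members were below 0, a count that was not made over all tested genes. Called by size were 2 lower and 0 higher in the siSmyd5 arm (background 3.48% lower, 8.68% higher), 5 lower and 3 higher in the siPhf2 arm (6.63%, 8.47%) and 2 lower and 0 higher in the siCtl arm (2.4%, 6.92%). Atp5sl was lower by size in both the siSmyd5 and the siCtl arm, at ratios of 0.230 (0.0780 to 0.567) and 0.386 (0.167 to 0.819). The siPhf2 calls rest on few reads, as for Uqcrfs1, with 16 reads with KLA against 8 with vehicle.

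**Figure D5:**
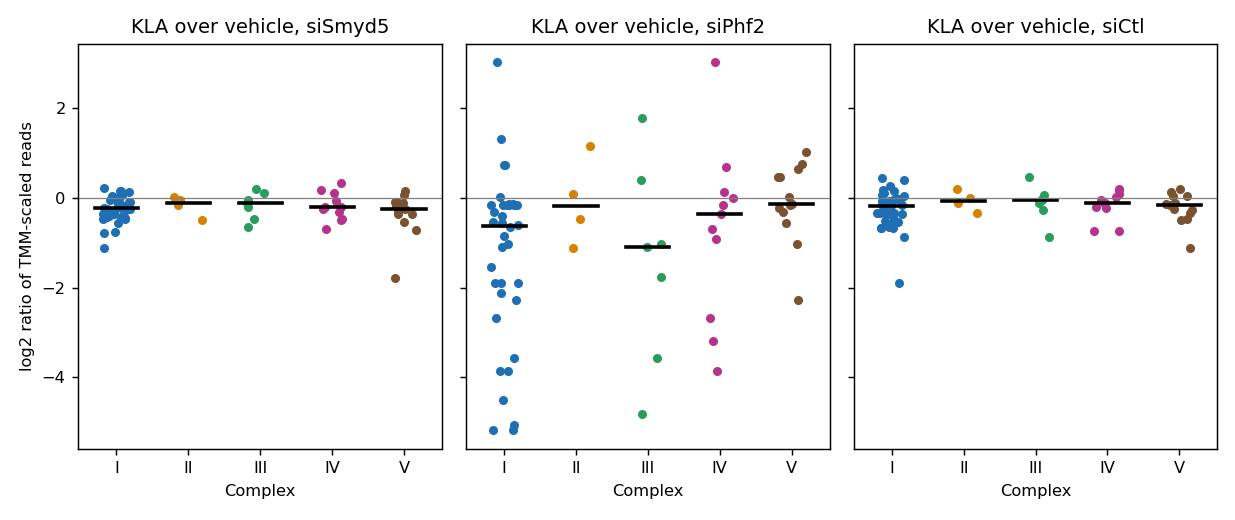
Log2 ratio of KLA over vehicle (y axis) of the 71 tested members by complex (x axis) in the siSmyd5, siPhf2 and siCtl arms, from left to right, with medians as bars. Points of the siPhf2 arm spread from -5.18 to 3.01, the lowest being members with 0 reads with KLA, whereas those of the siCtl arm spread from -1.89 to 0.47.

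By complex, KLA medians in the averaged fit were -0.27 for complex I, -0.12 for II, -0.17 for III, -0.24 for IV and -0.17 for V. The F1 genes stood at 0.03, with Atp5b at 0.10, against -0.37 for the other complex V genes, of which Atp5j2 lay at -0.59 and Atp5k at -0.53. The pattern over the rest of the pathway was mixed. Of the regulators, Ppargc1a, the coactivator PGC-1alpha, had 12, 0 and 11 reads with KLA (siSmyd5, siPhf2 and siCtl), against 55, 11 and 47 with vehicle. It fell by 2.13 ± 0.35 (adjusted p = 0.00018 by edgeR's quasi-likelihood test). Gabpa and Gabpb1, both subunits of GABP, rose by 1.22 ± 0.24 and 1.37 ± 0.29. In the other lists Dld (0.72), the shared E3 of the dehydrogenase complexes, rose, and Tmem126b (-0.96), an assembly factor, and Mrpl1 (-0.82) fell. No other gene of the lists of assembly factors, carriers, cycle enzymes, regulators or ribosomal proteins passed the KLA test. Of 12 regulators 2 thus rose and 1 fell, and 1 of 18 cycle enzymes rose. Of 23 assembly factors 1 fell, as did 1 of 68 mitochondrial ribosomal proteins. Over all tested genes 11.2% rose and 4.6% fell.

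In the siPhf2-labelled libraries 4 members fell relative to the siCtl-labelled libraries: Uqcrc2, Atp5c1, Cox7b and Ndufs4, all with under 10 reads in each siPhf2-labelled library. Averaged over agents, 4 of 71 fell and 0 rose, against 4.49% of all tested genes that fell and 8.11% that rose, with 14 (19.7%) at an unadjusted p under 0.05 by edgeR's test, against 28.2% of all tested genes. The share was again near the background, and the median was -0.61, against -0.13 over all tested genes. Uqcrc2 had 3 and 4 reads in the siPhf2-labelled libraries (KLA and vehicle), against 216 and 238 in the siCtl-labelled libraries, a log2 change of -2.41 ± 0.45 (adjusted p = 0.00141 by edgeR's quasi-likelihood test). Atp5c1, the gamma subunit of F1, had 4 and 9 reads, against 276 and 330, a change of -1.94 ± 0.38. Cox7b had 0 and 2 reads, against 109 and 123, at least 2.23-fold lower with KLA against a floor of 3 reads. Ndufs4, an accessory subunit whose loss is known to cause Leigh syndrome in humans, had 0 and 1 reads, against 63 and 89, and its ratio with vehicle was 0.111 (0.00278 to 0.636).

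By single libraries the siPhf2 medians were -0.97 with KLA and -0.52 with vehicle, and -0.37 and -0.51 with members at 0 reads (17 and 1 of 71) at their bound. Over all tested genes, with no such bound, the medians were -0.34 and -0.10. Subtracting genes of like length left the members at -0.03 and -0.05. By size, 11 members were lower and 0 higher with KLA (background 7.23% and 7.92%), and 11 lower and 2 higher, Ndufa5 and Uqcr10, with vehicle (8.88% and 10.8%). Leaving out the siCtl vehicle library left 2 calls in the averaged fit (0.738% of all tested genes fell). Leaving out the siPhf2 vehicle library gave 8 (4.43%), and leaving out the siPhf2 KLA library gave 11, of which 1 rose (10.9% of all tested genes) and 10 fell (7.19%). With length offsets 1 member rose and 2 fell, against 7.93% and 2.15% of all tested genes. Scaling by library totals called 70 members as lower, with 91.9% of all tested genes falling. Over all genes 38 rose and 7348 fell with library totals, and 648 and 359 with TMM. The siPhf2 comparisons share the siCtl-labelled libraries with the siSmyd5 comparisons. Cyc1 (-2.48 ± 0.57), the cytochrome c1 of complex III, and Slc25a5 (-1.40 ± 0.40), an ADP/ATP carrier, fell as well (2 of 17 in their list). So did Fh1 (-3.08 ± 0.74) and Pdhx (-3.34 ± 1.0), 2 of 18 in theirs, while Esrra (1.76 ± 0.47) rose, 1 of 12 regulators. Over all tested genes 4.49% fell and 8.11% rose. These calls too rest on few reads in the siPhf2-labelled libraries (KLA and vehicle). Cyc1 had 1 and 3, Slc25a5 4 and 9, Fh1 1 and 1, Pdhx 0 and 1, and Esrra 8 and 11.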

How the data were processed

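The 6 mouse macrophage libraries, 1 for each of 3 siRNAs and 2 agents, were grouped by sample titles. Per the file headers, each RefSeq transcript has a signal that the authors had normalized to 10000000 tags a library. The submitters' processing notes name HOMER and mm9. The aligner, strand setting and treatment of multiply matching reads were not found in the labels or headers. No molecular identifiers are described, so intervals cover counting error only.

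Whole reads were recovered by dividing each value by 10000000 over a header total. Within 0.02 of a read, 100% of nonzero siSmyd5 values came out whole under the total on the same column. For siCtl that total made 2.43% whole, whereas the total on the siPhf2 column of the same agent made 100% whole, and for siPhf2 values (1.13% with vehicle and 0.761% with KLA) the siCtl totals did so. Column names stayed as printed, with the exchange as one alternative. Of the columns, 0 held values of no listed sample.

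The 7995 genes averaging 10 or more reads went into an additive fit of siRNA and agent by edgeR 4.0.16 (R 4.3.3; quasi-likelihood test, TMM scaling, 2 residual degrees of freedom, Benjamini-Hochberg threshold 0.05, 2-sided). The deposited unit is a signal and not counts, so limma 3.58.1 on log2 values was run beside it, as were limma-voom and DESeq2 1.42.0. With 1 library per group there is no spread between replicates. A p-value therefore rests on how far the libraries depart from the additive fit, where noise and any siRNA-by-agent interaction are mixed. edgeR also draws the spread of each gene towards a value shared over the tested genes. A call thus rests on that shared spread as well as on the gene's own 2 residual degrees of freedom. Nothing marks the libraries as separate cultures, so the noise may be technical alone. Single-library ratios had reads added in proportion to TMM-scaled library size, 2 on average over the 6 libraries and so fewer in the siPhf2-labelled ones, exact conditional Poisson 95% intervals (no reads added) and no p-value. The length correction subtracts the median ratio of the 400 tested genes nearest in length, members left out. The edgeR fit was tested on simulated data. The k-mers (32 bases) came from GENCODE M21 and the promoters from RefSeq on GRCm38.p6; no coordinates were moved between builds.

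Named members are those that passed an averaged fit (at most 10 per effect and direction; others by value), the 2 with the highest level per kilobase in each complex, the largest and smallest length-corrected siSmyd5 ratio, complex II, isoform pairs, members called by size in several contrasts and those under the minimum. The members and lists were chosen with earlier results of these data known. Alternatives covered scaling, filters, tests, reads added, length neighbours, transcripts per symbol, the 3 symbols that are not subunits, and each library left out.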

Additional observations from a re-analysis of the deposited data

How the results depend on the processing

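The siSmyd5 members called (18) became 3 with library totals, 2 (of the 42 members left) with a mean of at least 50 reads, 0 with DESeq2, limma-voom and limma on log2 values, 0 with length offsets (10 at an unadjusted p under 0.05, or 14.1% against 15.8% of all tested genes), 43 without both siPhf2-labelled libraries, 8 with length offsets and both left out (added after seeing the data), and 0 to 43 when each library was left out. The KLA members called (3) became 6 with library totals, 8 with totals without Rn45s, 1 with at least 50 reads, 0 with DESeq2 and limma on log2 values, 1 with limma-voom, 9 without both siPhf2-labelled libraries, 6 with length offsets and both left out (added after seeing the data; 10.4% of all tested genes fell), and 0 to 9 when each library was left out. The siPhf2 members called (4) became 70 with library totals, 17 with totals without Rn45s (17% of all tested genes fell), 11 with no filter, and 2 to 11 when each library was left out; exchanging the siCtl and siPhf2 names turned the 4 falls into 4 rises by construction. The exchange gave 27 siSmyd5 members called, with 12 of the 18 kept and 6 lost, while 11.8% of all tested genes rose, and moved the median siSmyd5 ratio to 1.37 with KLA and 1.05 with vehicle, and library totals moved the siPhf2 vehicle median to -2.37. Where fewer libraries or genes entered a fit that is how it was built, and for the rest the cause was not tested.

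The members called one by one changed sign in 0 planned repeats (the name exchange was not repeated for single siPhf2 members) and lost their call in 179 of 315 for siSmyd5, 20 of 51 for KLA and 6 of 64 for siPhf2. With library totals the median of all genes lay at -0.12 (siSmyd5, vehicle), -0.16 (KLA, siCtl arm) and -1.96 (siPhf2, vehicle), and the members' median relative to it at 0.60, -0.17 and -0.40. Of all tested genes, 1.11% rose with siSmyd5 at 50 or more reads, 5.26% fell with KLA, and 5.25% fell with siPhf2 under no filter. No paired analysis was possible because the titles carry no replicate numbers and each group has 1 library; the additive fit itself compares KLA with vehicle within siRNA arms. Depth limits the siPhf2-labelled libraries most, with 356 and 722 member reads.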
